A study of Homo sapiens with 16 samples.

Results

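The integrin alpha subunits were followed at the mRNA level in MDA-MB-231, an established line from a human breast cancer that lacks hormone receptors and HER2 amplification, in which the anchoring protein AKAP2 was depleted. The members are the rows of the count table named ITGA1, ITGA2, ITGA3, ITGA4, ITGA5, ITGA6, ITGA7, ITGA10, ITGA11 and ITGAV, which is 10 of 57500 genes, chosen by name and not by their values. All 4 groups are MDA-MB-231 cells with a short hairpin RNA under doxycycline control. They are cells with a hairpin against AKAP2 given doxycycline (induced shAKAP2), the same cells without doxycycline (uninduced shAKAP2), cells with a scrambled control hairpin given doxycycline (induced shScramble) and the same cells without it (uninduced shScramble). Each group has 4 libraries. Polyadenylated RNA was sequenced, with 24482997 to 37472525 counts per library. The labels name them biological replicates but not as separate cultures. A p-value here therefore sets a difference of group means only against the spread among such libraries. Whether a hairpin line is a clone or a pool, and the dose and time of doxycycline, are not stated in the labels.

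Integrins are heterodimers of an alpha and a beta chain that span the plasma membrane and tie the extracellular matrix to the actin cytoskeleton at focal adhesions. The alpha chain largely sets the ligand. Subunits alpha1, alpha2, alpha10 and alpha11 pair with beta1 as collagen receptors, alpha3, alpha6 and alpha7 make laminin receptors, and alpha5 and alphaV bind ligands with the tripeptide RGD, such as fibronectin and vitronectin. Alpha4 binds VCAM1 and the CS1 segment of fibronectin and is best known from leukocytes. AKAP2 anchors protein kinase A to membranes and actin, and the series is about its place at focal adhesions.

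The libraries matched their labels. AKAP2 had 3, 0, 1 and 0 counts in induced shAKAP2 libraries, against 42, 36, 37 and 53 in uninduced ones, a log2 fold change of -5.06 (SE 0.577). The readthrough gene PALM2-AKAP2 overlaps AKAP2, so reads of these genes may be split between them. PALM2-AKAP2 had 3, 1, 1 and 0 counts in induced and 10, 5, 16 and 8 in uninduced shAKAP2 libraries. Among genes that define the cell line, VIM stood at 1302 to 1806 CPM (counts scaled to library size) and CD44 at 834 to 1141 CPM over all libraries. The receptor genes ESR1 and PGR had at most 1 and 3 counts. ERBB2, the HER2 gene, was also listed as low or absent but stood at 49.7 to 69.1 CPM. Replicate 1 of both shScramble groups stood apart from the other shScramble libraries in several integrin alpha genes. Results that rest on these libraries are therefore also given without them. The libraries were picked by their values in genes that are then tested, so adjusted p from such fits may be too low. Those fits describe how far results depend on these libraries.

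Levels between genes were compared as CPM per kilobase of exon (the union of a gene's exons). In induced shAKAP2 libraries ITGA3 led with 129 ± 6.16 CPM per kb, followed by ITGA6 with 101 ± 2.85 (SD, n = 4). ITGAV had 25.2 ± 0.463, ITGA2 11.0 ± 1.49 and ITGA5 6.51 ± 0.419 CPM per kb. ITGA1 came next at 0.468 ± 0.0740 CPM per kb, and ITGA10, ITGA4 and ITGA7 were at 0.0951 ± 0.0339, 0.0751 ± 0.0305 and 0.0589 ± 0.0400. The first 7 places were held by the same genes, in the same order, in all 4 groups. Within a group, the libraries of ITGA3, ITGA6, ITGAV, ITGA2, ITGA5 and ITGA1 did not overlap from one gene to the next. ITGA1 overlapped ITGA10 only in uninduced shScramble libraries, ITGA10 overlapped ITGA4 only in induced shAKAP2 libraries, and ITGA4 and ITGA7 overlapped in every group. With the longest transcript as the length, ITGA2 and ITGA5 also overlapped in both induced groups, and ITGA4 stood above ITGA10 in induced shAKAP2 libraries.

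**Figure D1:**
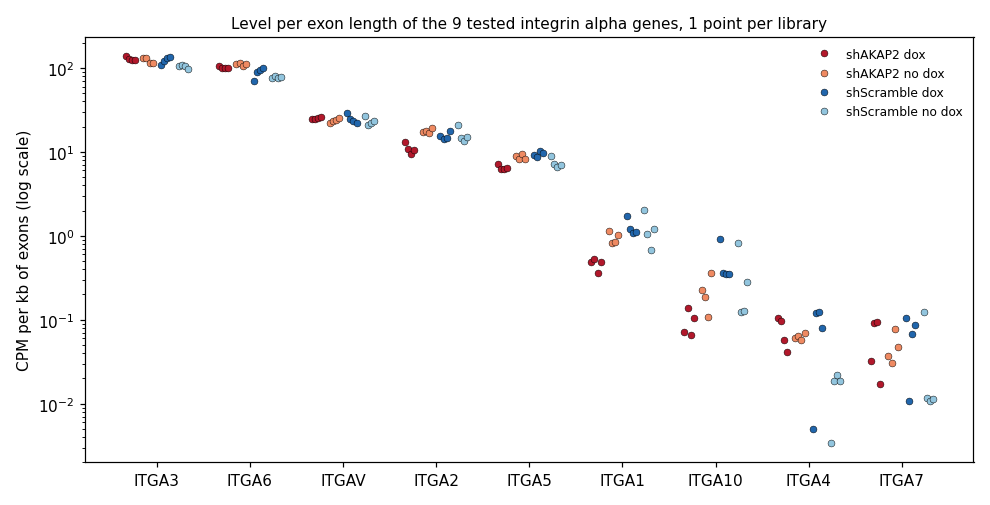
Each point is the level of an integrin alpha gene in 1 library, in CPM per kilobase of exon on a log axis, by group (dox, doxycycline given; no dox, not given). ITGA3 and ITGA6 lie near 100 in every group, ITGAV, ITGA2 and ITGA5 lie between about 5 and 30, and ITGA10, ITGA4 and ITGA7 stay below 1.

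ITGA11, a collagen receptor subunit, was close to undetected. It had 5, 0, 0 and 0 counts in induced shAKAP2 libraries, 1, 0, 2 and 1 in uninduced shAKAP2 libraries, 1, 3, 3 and 0 in induced shScramble libraries and 0 in each uninduced shScramble library. It did not pass the filter on low counts, which left 9 members among the 15566 genes tested, and no fold is given for it.

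Inducing the AKAP2 hairpin lowered 3 of the 9 tested integrin alpha genes and raised none. The genes were ITGA1, ITGA2 and ITGA5, of which the first 2 encode collagen receptor subunits and the third the classical fibronectin receptor subunit. Calls are from edgeR's quasi-likelihood test, with p adjusted over all 15566 genes by Benjamini and Hochberg and a limit of 0.05. In this comparison 28.3% of all genes were called, 15.2% lower and 13.1% higher. The libraries of the groups did not overlap for the same 3 members, against 36.5% of all genes. The share of members called was near the share of all genes, so the count shows nothing particular to integrins. The median log2 fold change was -0.12 over the 9 members and 0.00 over all genes.

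ITGA1 (ENSG00000213949; GRCh38 chromosome 5, 52787896 to 52959210, plus strand) had 9.13, 9.93, 6.72 and 8.96 CPM in induced shAKAP2 libraries, against 21.3, 15.1, 15.7 and 19.0 CPM in uninduced ones. The highest induced library lay below the lowest uninduced library. The means were 8.69 ± 1.37 CPM in induced and 17.7 ± 2.90 CPM in uninduced libraries (SD, n = 4 each), a log2 fold change of -1.03 (SE 0.270, adjusted p = 0.00914), or 2.04-fold lower. ITGA1 shares 2.56% of its exonic bases with PELO on the same strand, and reads there cannot be assigned to either gene with certainty.

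ITGA2 (ENSG00000164171) lies 30.1 kb downstream of ITGA1 on the same strand, at chromosome 5, 52989326 to 53094779. It encodes the alpha chain of the main collagen receptor of epithelial cells and platelets. Its level was 103, 85.9, 75.4 and 83.0 CPM in induced shAKAP2 libraries, against 136, 138, 134 and 152 CPM in uninduced ones, again without overlap. This gave a log2 fold change of -0.69 (SE 0.117, adjusted p = 0.000162), or 1.61-fold lower.

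ITGA10 (ENSG00000143127; chromosome 1, 145891208 to 145910189, minus strand) is known chiefly from cartilage. It had 0.453, 0.879, 0.413 and 0.658 CPM in induced shAKAP2 libraries, against 1.42, 1.19, 0.685 and 2.26 CPM in uninduced ones. The lowest uninduced library lay among the induced ones, and the log2 fold change of -1.22 (SE 0.596, adjusted p = 0.144) did not pass the test. It passed when only the shAKAP2 groups were fitted (adjusted p = 0.0169). It also passed without both shScramble replicate 1 libraries (adjusted p = 0.00974), in a fit added after seeing the data.

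The fold changes of the 3 tested collagen receptor subunits were all negative, with a median of -1.03, and 2 of them were called. Collagen receptor subunits made up 4.21 ± 0.403% of the summed alpha level per kilobase in induced and 6.65 ± 0.470% in uninduced shAKAP2 libraries (SD, n = 4 each). ITGA2 carries most of that share, and the libraries of the groups did not overlap. Fibroblast markers moved in the same comparison: 3 of the 7 tested of 9 listed were lower, and the 9 summed to 19.6 to 21.8 CPM in induced and 21.6 to 33.6 CPM in uninduced libraries, with none at 0 in every library of either group. Luminal epithelial markers were higher for 2 of 6 tested, and the 9 listed summed to 1284 to 1427 CPM in induced and 1062 to 1106 CPM in uninduced libraries, with 2 of them, ESR1 included, at 0 throughout. Of 8 tested blood cell markers only LCP1, an actin-bundling protein gene, was called, higher by 1.20 (adjusted p = 0.000162). The part of these markers in the fall of the collagen receptor subunits was not tested. Fewer cells that express a gene and less RNA per cell cannot be told apart in bulk RNA.

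**Figure D2:**
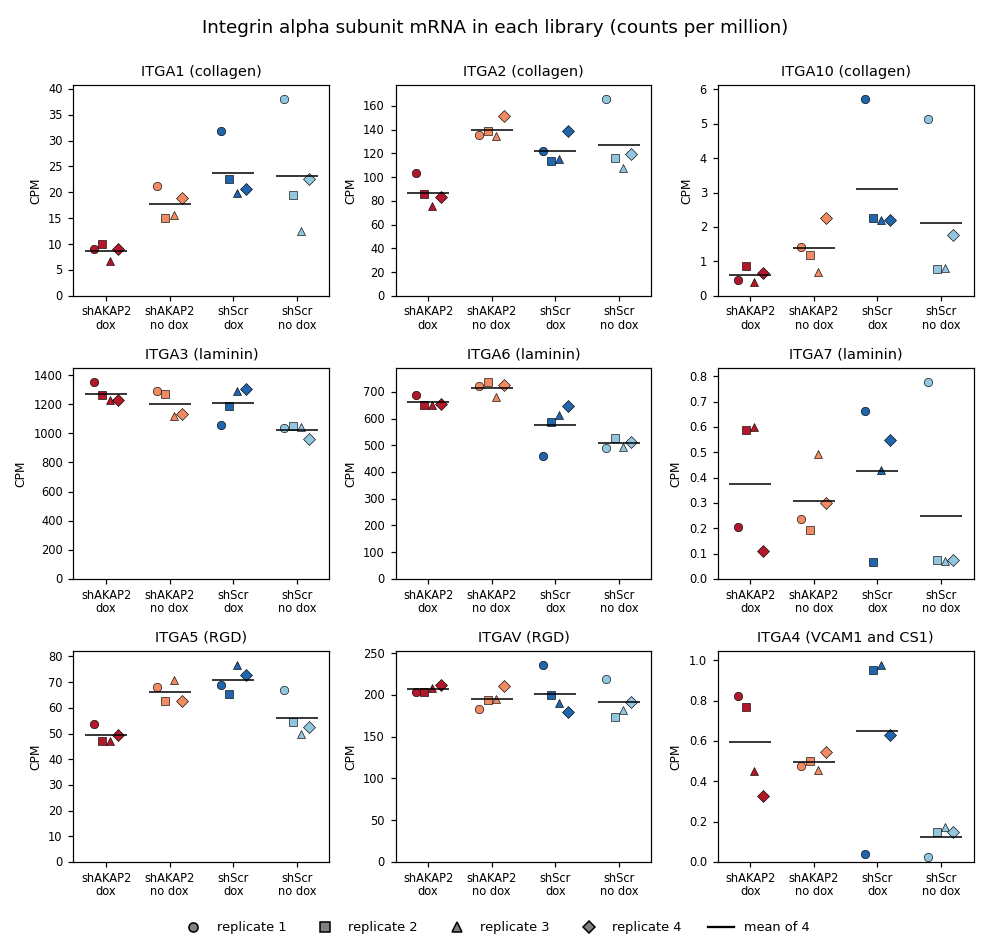
CPM of the 9 tested integrin alpha genes in each library, by group, with 1 marker shape per replicate number and a line at the mean of 4 libraries (shScr, shScramble). For ITGA1, ITGA2 and ITGA5 all induced shAKAP2 libraries lie below all uninduced shAKAP2 libraries. Replicate 1 of the shScramble groups is high for ITGA1 and ITGA10 and low for ITGA4.

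None of the 3 laminin receptor subunits was called in the main fit when the AKAP2 hairpin was induced. ITGA3 (ENSG00000005884; chromosome 17, 50055968 to 50090481, plus strand) encodes the chain of the laminin-332 and laminin-511 receptor. It had 1354, 1263, 1226 and 1226 CPM in induced shAKAP2 libraries, against 1293, 1273, 1122 and 1131 CPM in uninduced ones. These ranges overlapped, and the log2 fold change was 0.07 (95% interval -0.07 to 0.22, adjusted p = 0.482).

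ITGA6 (ENSG00000091409; chromosome 2, 172427354 to 172506282, plus strand) encodes the chain that pairs with beta1 and, in hemidesmosomes, with beta4. It had 689, 650.1, 649.8 and 656 CPM in induced shAKAP2 libraries, against 722, 738, 679 and 726 CPM in uninduced ones. Replicate 1 of the induced libraries lay above the lowest uninduced library. The log2 fold change was -0.12 (95% interval -0.28 to 0.05, adjusted p = 0.289). ITGA6 was called lower when only the shAKAP2 groups were fitted (-0.12, adjusted p = 0.0146). It was also called without both shScramble replicate 1 libraries (-0.12, adjusted p = 0.0224), in a fit added after seeing the data. ITGA7 (ENSG00000135424; chromosome 12, 55684568 to 55716043, minus strand), the muscle laminin receptor subunit, had 5, 16, 16 and 3 counts in induced and 7, 5, 13 and 11 counts in uninduced libraries. Its log2 fold change of 0.30 (SE 0.772) did not pass the test.

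Because ITGA3 and ITGA6 are the most abundant, laminin receptor subunits made up most of the summed alpha level per kilobase, 84.2 ± 0.211% in induced and 81.8 ± 1.20% in uninduced shAKAP2 libraries. The groups did not overlap. As the class shares are parts of the same sum, this is not a separate result from the lower collagen share. The sum itself ranged from 266 to 289 CPM per kb in induced libraries and overlapped the range of 269.5 to 293 in uninduced ones.

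**Figure D3:**
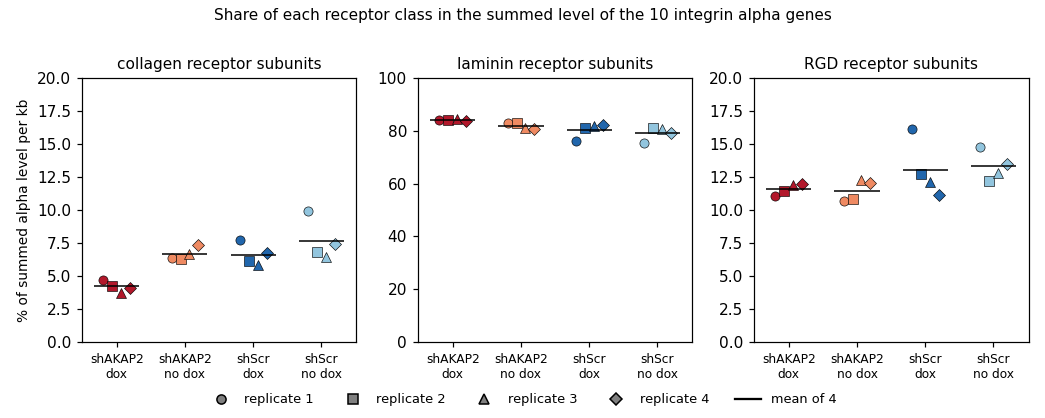
Share of collagen, laminin and RGD receptor subunits in the summed CPM per kilobase of the 10 integrin alpha genes, in percent, with 1 point per library and a line at the mean of 4. The collagen share of induced shAKAP2 libraries (3.74% to 4.72%) lies below that of every other library. The middle panel runs to 100% and the outer panels to 20%.

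The RGD receptor subunits differed from each other. ITGA5 (ENSG00000161638; chromosome 12, 54395261 to 54419460, minus strand) had 53.9, 47.0, 47.3 and 49.3 CPM in induced shAKAP2 libraries, against 67.9, 62.8, 70.8 and 62.5 CPM in uninduced ones, without overlap. Its log2 fold change was -0.42 (SE 0.0871, adjusted p = 0.00101), or 1.34-fold lower. ITGAV (ENSG00000138448; chromosome 2, 186590065 to 186680901, plus strand), which pairs with several beta chains and serves vitronectin and latent TGF-beta, had 204, 204, 209 and 211 CPM in induced libraries. Its uninduced libraries had 183, 194, 195 and 211 CPM. The log2 fold change was 0.08, with a 95% interval of -0.09 to 0.25 (adjusted p = 0.503). RGD receptor subunits made up 11.6 ± 0.441% of the summed alpha level in induced and 11.5 ± 0.805% in uninduced shAKAP2 libraries, and these ranges overlapped.

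ITGA4 (ENSG00000115232; chromosome 2, 181457202 to 181536187, plus strand) had 20, 21, 12 and 9 counts in induced and 14, 13, 12 and 20 counts in uninduced shAKAP2 libraries. The ranges overlapped, and a log2 fold change of 0.26 (SE 0.584, adjusted p = 0.791) did not pass the test.

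One short sequence, GAACACA, was set against the members because earlier work on these data had found it in many of the 3' untranslated regions (3' UTRs) of genes that fell with the AKAP2 hairpin. Of the 12828 tested genes with an annotated 3' UTR, 12.8% hold it in their longest one, on the transcript strand. The share was 30.9% of the 2170 genes that fell, 5.75% of the 1914 that rose and 9.89% of the 8744 not called. As the sequence was picked from these same data, the shares describe it and are not a test. They were not adjusted for 3' UTR length. Among the 10 members only ITGA6 holds it, in 1 copy in the last exon (exon 26 of 26 of its transcript with the longest 3' UTR), and AKAP2 holds 1 copy too. Both sites are shown with 10 flanking bases on each side, 5' to 3', with the word in capitals, from GENCODE release 29 on GRCh38, at chr2:172505682-172505708 and chr9:110169248-110169274, both on the plus strand.
ITGA6: tgaaagaataGAACACAgtttgtagtg
AKAP2: cagtttatgaGAACACAttttcacagt
The 3 members that fell, ITGA1, ITGA2 and ITGA5, do not have these letters in their longest annotated 3' UTR. These span 6759, 4180 and 1032 bases. A match is a description of the letters and not of a site that is used.

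Doxycycline in cells with the scrambled hairpin was compared next, to set the change apart from that of the drug and of an unrelated hairpin. None of the 9 tested members was called in either direction. Of all genes 1.08% were called, 0.559% higher and 0.520% lower. At an unadjusted p under 0.05 the members ITGA3, ITGA4, ITGA5 and ITGA6 would have passed, with 1456 of all genes. DESeq2 called 2 members higher, ITGA4 and ITGA5, with 1.08% of all genes higher and 0.848% lower. The median log2 fold change was 0.24 over the members. Only ITGA3 had no overlap between the groups, which held for 4.43% of all genes.

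ITGA5 had 68.7, 65.6, 76.7 and 72.9 CPM in induced shScramble libraries, against 67.0, 54.4, 50.0 and 52.4 CPM in uninduced ones. Replicate 1 of the uninduced libraries lay within the induced range. Its log2 fold change of 0.34 (SE 0.0866, adjusted p = 0.0635) did not pass. ITGA3 had 1058, 1186, 1288 and 1306 CPM in induced and 1039, 1052, 1040.2 and 959 CPM in uninduced shScramble libraries. Its log2 fold change was 0.24 (SE 0.0704, adjusted p = 0.134). ITGA6 had 460.3, 587, 613 and 646 CPM in induced and 492, 528, 493 and 514 CPM in uninduced libraries, with replicate 1 the lowest of the induced ones. Its log2 fold change of 0.19 (SE 0.0771, adjusted p = 0.418) did not pass the test.

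None of the 3 tested collagen receptor subunits was called here. ITGA1 had 31.9, 22.6, 19.9 and 20.7 CPM in induced and 38.1, 19.5, 12.5 and 22.5 CPM in uninduced shScramble libraries, with replicate 1 the highest of both groups. The log2 fold change was 0.03 (SE 0.257). ITGA2 had 122, 113, 115 and 139 CPM in induced and 166, 116, 108 and 119 CPM in uninduced libraries, a log2 fold change of -0.06 (SE 0.116). ITGA10 had 5.73, 2.27, 2.19 and 2.21 CPM in induced and 5.15, 0.774, 0.794 and 1.76 CPM in uninduced libraries. Replicate 1 was again far above the others in both groups, and the log2 fold change of 0.52 (SE 0.523) did not pass. With 1 library left out, the log2 fold change ran from -0.17 to 0.39 for ITGA1 and from -0.13 to 0.10 for ITGA2. That of ITGA10 ran from 0.048 to 1.48. Without replicate 1 of both shScramble groups ITGA2 was 0.10 (adjusted p = 0.571). Whether the 3 subunits move together in this line was not tested. ITGAV, with 236, 200.3, 190.5 and 179.5 CPM in induced and 219, 173, 182 and 191 CPM in uninduced libraries, overlapped throughout.

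Without the replicate 1 library of both shScramble groups, 4 members were higher in induced shScramble libraries. They were ITGA3 (log2 fold change 0.31, adjusted p = 0.000332), ITGA4 (2.42, adjusted p = 0.0127), ITGA5 (0.46, adjusted p = 0.000135) and ITGA6 (0.27, adjusted p = 0.000403). In the same fit 3.79% of all genes were called higher and 2.66% lower. Both shScramble groups then had 3 libraries each. As the libraries left out were picked by their values in these genes, the calls are a description and not a separate test.

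The lines' responses to doxycycline were then compared directly, as the interaction term of the model. The effect was more negative in the shAKAP2 line for ITGA5, by -0.76 (SE 0.123, adjusted p = 0.000169), and for ITGA2, by -0.63 (SE 0.164, adjusted p = 0.0109). These were 2 of 9 tested members, against 10.5% of all genes called lower, 7.53% higher and 18.0% in either direction. For ITGA1 the difference was -1.07 (SE 0.372, adjusted p = 0.0603), which did not pass. The ITGA1 difference also did not pass in 19 of 23 alternatives (adjusted p up to 0.167). It did pass with DESeq2 (-1.06, adjusted p = 0.0435), with a replicate block (adjusted p = 0.00229) and without replicate 1 of uninduced shScramble (-1.42, adjusted p = 0.000975). It passed as well without replicate 1 of both shScramble groups. The differences of ITGA6 (-0.30, adjusted p = 0.0603), ITGA3 (-0.17, adjusted p = 0.271), ITGA10 (-1.74, adjusted p = 0.151), ITGA4 (-2.15, adjusted p = 0.104) and ITGA7 (-0.39, adjusted p = 0.860) did not pass either. ITGAV had a difference of 0.01 with a 95% interval of -0.23 to 0.25.

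ITGA5 had opposite signs in the lines, with -0.42 in the shAKAP2 line and 0.34 in the shScramble line, where it was not called. ITGA2 had -0.69 in the shAKAP2 line and -0.06 in the shScramble line. Without the replicate 1 libraries of both shScramble groups, 7 members had a more negative effect in the shAKAP2 line, all tested members but ITGA7 and ITGAV, and 16.5% of all genes were called lower. The difference of ITGA1 was then -1.26 (adjusted p = 0.000328), that of ITGA10 -2.23 (adjusted p = 0.00210) and that of ITGA6 -0.39 (adjusted p = 1.27e-05). Markers of other cell types also had a more negative effect in the shAKAP2 line when all libraries were fitted. These were 4 of 7 tested fibroblast markers, with a median difference of -1.93, and 4 of 8 tested blood cell markers, with a median of -2.15, while 1 blood cell marker had a more positive one. Their part in the members' differences was not tested.

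**Figure D4:**
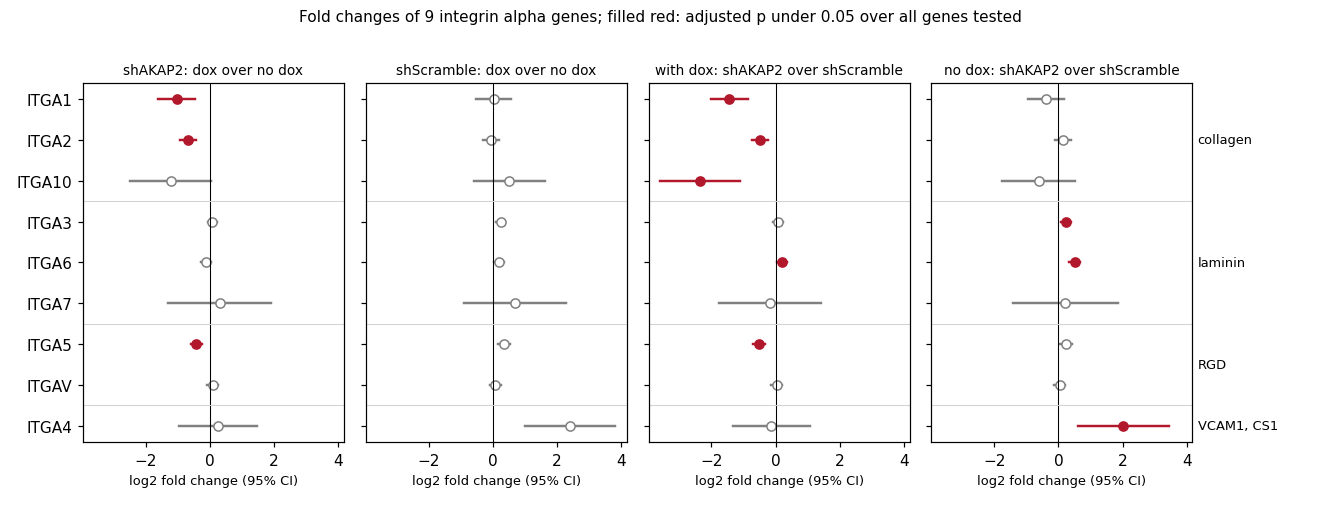
Log2 fold changes with 95% intervals of the 9 tested integrin alpha genes in 4 comparisons, grouped by receptor class, with called genes in filled red. The collagen receptor subunits and ITGA5 lie left of 0 in the shAKAP2 line (ITGA1 at -1.03, ITGA2 at -0.69, ITGA5 at -0.42). In the shScramble line no gene is filled, and of the same genes ITGA10 (0.52), ITGA5 (0.34) and ITGA1 (0.03) lie right of 0 and ITGA2 (-0.06) left of it.

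With doxycycline in both lines, shAKAP2 was compared with shScramble. This comparison shares its induced shAKAP2 libraries with the first one. Of the 9 tested members 4 were lower and 1 higher, against 21.5% of all genes lower, 18.7% higher and 40.2% in either direction. The lower ones were all 3 tested collagen receptor subunits and ITGA5. ITGA10 had 0.453 to 0.879 CPM in induced shAKAP2 and 2.19 to 5.73 CPM in induced shScramble libraries, a log2 fold change of -2.35 (SE 0.587, adjusted p = 0.00403). ITGA1 had 6.72 to 9.93 CPM in induced shAKAP2 and 19.9 to 31.9 CPM in induced shScramble libraries, a log2 fold change of -1.45 (SE 0.270, adjusted p = 0.000497). ITGA5 was lower by a log2 fold change of -0.52 (SE 0.0871, adjusted p = 7.00e-05) and ITGA2 by -0.49 (SE 0.116, adjusted p = 0.00216). All 4 calls held without replicate 1 of both shScramble groups. Of the 7 tested fibroblast markers 4 were lower and 1 higher here, with a median log2 fold change of -2.22. The 9 listed summed to 19.6 to 21.8 CPM in induced shAKAP2 and 46.6 to 70.5 CPM in induced shScramble libraries, without overlap, and their part in the lower collagen receptor subunits was not tested.

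ITGA6 was higher, with 649.8 to 689 CPM in induced shAKAP2 and 460.3 to 646 CPM in induced shScramble libraries. Its log2 fold change of 0.20 (adjusted p = 0.0473) was lost in 9 of 16 alternatives, and without replicate 1 of both shScramble groups it was 0.10 (adjusted p = 0.0721). The 5 called members were also the 5 with no overlap between groups, which held for 37.8% of all genes.

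Without doxycycline the lines already differed in laminin receptor subunits. Of the 9 tested members 3 were higher in shAKAP2 cells and none lower, against 8.65% of all genes higher, 9.31% lower and 18.0% in either direction. ITGA6 had 679 to 738 CPM in uninduced shAKAP2 and 492 to 528 CPM in uninduced shScramble libraries, a log2 fold change of 0.50 (SE 0.0772, adjusted p = 0.000212) that held in all 16 alternatives. ITGA3 had 1122 to 1293 CPM in uninduced shAKAP2 and 959 to 1052 CPM in uninduced shScramble libraries, a log2 fold change of 0.24 (SE 0.0704, adjusted p = 0.0251) that was lost in 3 of 16 alternatives. ITGA4 had 12 to 20 counts in uninduced shAKAP2 and 1 to 5 counts in uninduced shScramble libraries, a log2 fold change of 2.01 (SE 0.678, adjusted p = 0.0444) that was lost in 9 of 16, among them each of the 8 that left out a library. These 3 members were also those with no overlap, which held for 25.5% of all genes. Without replicate 1 of both shScramble groups 5 members were higher, with ITGA2 (0.30, adjusted p = 0.0124) and ITGA5 (0.34, adjusted p = 0.000454) added, and 13.7% of all genes.

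ITGA4 is a leukocyte integrin as well, and some leukocyte genes, not all, varied beside it. ITGA4 had 1, 28, 25 and 23 counts in induced and 1, 4, 5 and 4 counts in uninduced shScramble libraries, so that replicate 1 stood alone among the induced ones. PTPRC, which encodes the pan-leukocyte antigen CD45, had 10, 77, 41 and 50 counts in the same induced and 15, 2, 11 and 2 counts in the uninduced libraries. The tetraspanin gene CD53 had 1, 34, 42 and 32 counts in induced and 0, 3, 0 and 2 counts in uninduced shScramble libraries, with replicate 1 again the lowest of the induced ones. Others of the 10 blood cell markers had the opposite order: CD14 had 307, 116, 123 and 167 counts in induced and 276, 101, 102 and 75 counts in uninduced shScramble libraries, with replicate 1 the highest of both groups. LYZ had 19, 15, 7 and 13 counts in the induced ones, where replicate 1 was also the highest.

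Of the 5 tested other integrin alpha genes 3 were also higher in uninduced shAKAP2 than in uninduced shScramble cells and none was lower, against 8.65% and 9.31% of all genes. ITGAX was higher in uninduced shAKAP2 than in uninduced shScramble libraries by a log2 fold change of 2.58 (adjusted p = 0.0174), ITGAM by 2.37 (adjusted p = 0.0204) and ITGAL by 2.48 (adjusted p = 0.0360), all of them leukocyte alpha chains. ITGAE, also a leukocyte alpha chain and more abundant, had a log2 fold change of -0.11 (adjusted p = 0.518). ITGA9 averaged 0.480 CPM in uninduced shAKAP2 and 0.868 CPM in uninduced shScramble libraries and was not called. The 10 blood cell markers summed to 16.4 to 29.9 CPM in induced shAKAP2, 13.3 to 17.7 CPM in uninduced shAKAP2, 16.9 to 21.0 CPM in induced shScramble and 9.26 to 17.1 CPM in uninduced shScramble libraries. CD3E, a T cell marker, had at most 1 count in any library. Of the 8 markers tested 4 were higher and 1 lower between the uninduced lines. Their part in the difference of ITGA4 was not tested.

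**Figure D5:**
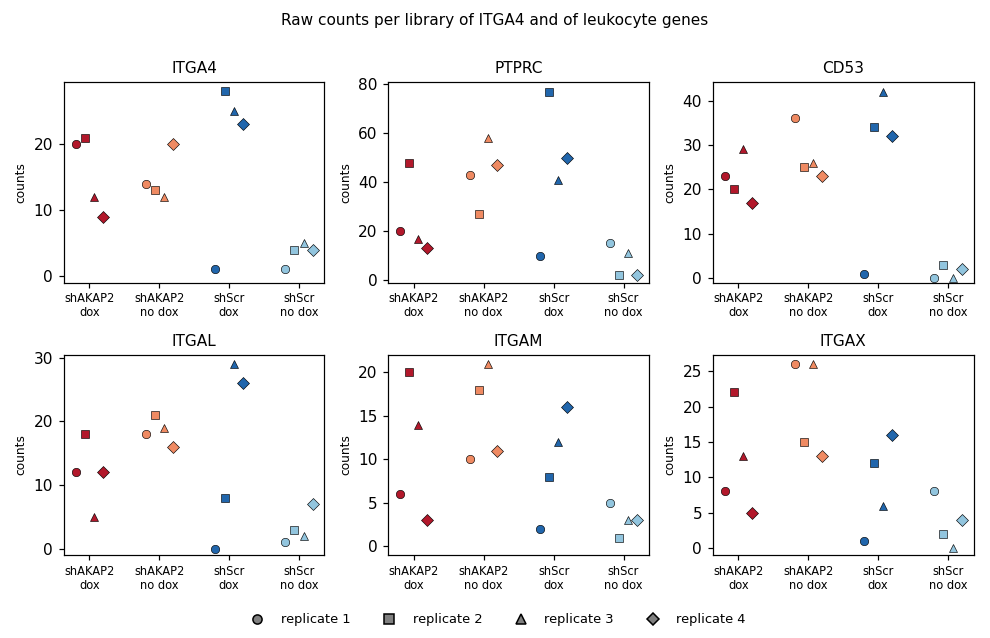
Raw counts per library of ITGA4, PTPRC, CD53, ITGAL, ITGAM and ITGAX, by group, with 1 marker shape per replicate number. Other leukocyte genes are not drawn. Among them are CD14 and LYZ, where replicate 1 was the highest of the induced shScramble libraries, and ITGAE, which was not called between the uninduced lines. ITGA4 and CD53 are at 1 count in replicate 1 of the induced shScramble libraries, while the other induced shScramble libraries have 23 to 28 and 32 to 42.

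Integrin beta chains were read from a list of 8 genes, all tested. The list holds ITGB2, whose product pairs with none of the members followed here. When the AKAP2 hairpin was induced 4 of the 8 were lower and 1 higher, against 15.2% of all genes lower and 13.1% higher. The median log2 fold change was -0.51 over the list and 0.00 over all genes. ITGB4, the partner of alpha6 in hemidesmosomes, averaged 65.1 CPM in induced and 99.5 CPM in uninduced shAKAP2 libraries (log2 fold change -0.61, SE 0.116, adjusted p = 0.000485). ITGB5, a partner of alphaV, averaged 147 CPM in induced and 200.3 CPM in uninduced shAKAP2 libraries (-0.44, adjusted p = 0.00318). ITGB8, another partner of alphaV, was lower by -1.30 (SE 0.317, adjusted p = 0.00378). ITGB2, the leukocyte beta chain, was lower by -0.57 (adjusted p = 0.0234). By the interaction term the effect of doxycycline was more negative in the shAKAP2 than in the shScramble line for ITGB4 (-0.96, adjusted p = 0.000338), ITGB8 (-1.30, adjusted p = 0.0430) and ITGB2 (-1.86, adjusted p = 3.11e-05). ITGB2 was higher in induced than in uninduced shScramble libraries by 1.28 (adjusted p = 0.000439).

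Ligand genes were called in both directions in induced shAKAP2 cells, where 13.1% of all genes were higher and 15.2% lower. Of 16 tested collagen genes 3 were higher and 4 lower. COL4A1 and COL4A2, the chains of basement membrane collagen IV, were higher by log2 fold changes of 1.09 (SE 0.122, adjusted p = 9.42e-07) and 0.87 (SE 0.0963, adjusted p = 8.93e-07). COL13A1, a transmembrane collagen, was lower by -0.65 (adjusted p = 7.15e-06) and the fibrillar COL3A1, which is also a fibroblast marker here, by -3.96 (adjusted p = 0.000299). Of 10 laminin chains 3 were higher and 2 lower. LAMC1, the gamma chain of many laminins, was higher by 0.45 (adjusted p = 0.00169). It was also higher with doxycycline in shScramble cells, by 0.42 (adjusted p = 0.0407). LAMA3, the alpha chain of laminin-332, was lower by -0.89 (adjusted p = 8.06e-05) and LAMA5 by -0.72 (adjusted p = 0.00191).

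A list of RGD ligand genes also holds some whose products bind integrins by other sites, such as VCAM1, CYR61 and CTGF. Of its 13 tested genes 4 were higher and 2 lower with the AKAP2 hairpin induced, against 13.1% of all genes higher and 15.2% lower. TNC, which encodes tenascin-C, averaged 8.83 CPM in induced and 42.7 CPM in uninduced shAKAP2 libraries, a log2 fold change of -2.28 (SE 0.144, adjusted p = 2.65e-10). The matricellular genes CYR61 and CTGF were higher by 0.74 (adjusted p = 5.83e-08) and 0.70 (adjusted p = 0.00136), and MFGE8 by 0.42 (adjusted p = 0.00900).

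Genes of integrin activation, inactivation and trafficking were called at shares to be read against the 28.3% of all genes. Among 22 tested genes that activate or inactivate integrins 4 were higher and 4 lower, which is near that background. The tetraspanin gene CD82 was lower by a log2 fold change of -0.60 (adjusted p = 2.38e-06) and KRIT1 by -0.68 (adjusted p = 1.16e-05). APBB1IP, whose product RIAM links RAP1 to talin, was higher by 0.66 (adjusted p = 0.000818). Among 19 tested integrin trafficking genes 3 were higher and 6 lower. RAB7A, a small GTPase of late endosomes, averaged 107 CPM in induced and 251 CPM in uninduced shAKAP2 libraries (-1.23, SE 0.0593, adjusted p = 4.15e-12). ARF6, which drives recycling to the membrane, averaged 158 CPM in induced and 341 CPM in uninduced shAKAP2 libraries (-1.11, SE 0.0549, adjusted p = 6.18e-12). RAB21, whose product binds integrin alpha tails, was lower by -0.59 (adjusted p = 8.33e-05) and the endocytic adaptor NUMB by -0.38 (adjusted p = 0.000774). None of the 5 tested other integrin alpha genes was called in this comparison.

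The likeness of members across the 16 libraries is given as Pearson's r of their log2 CPM, a description with no test because the libraries share 4 groups. The highest values were between ITGA1 and ITGA10, with r = 0.898, ITGA1 and ITGA2 with 0.805, and ITGA3 and ITGA4 with 0.795. Both ITGA1 and ITGA10 were highest in replicate 1 of the shScramble groups, and no r is given without these libraries. ITGA7 and ITGAV had no value above 0.475 with any member. The lowest value was -0.490, between ITGA1 and ITGA6. Among 12223 genes with a mean of at least 1 CPM, the gene most like ITGA1 was SH3GLB1 (r = 0.967), that most like ITGA2 was ZMIZ1 (0.955), and that most like ITGA6 was EPB41L2 (0.967), which encodes a membrane skeleton protein. ITGA10 was most like TNS4 (0.926), which encodes a tensin of focal adhesions, ITGA4 most like CHI3L1 (0.936) and ITGA5 most like RARG (0.909). ITGA3 was most like HDGF (0.908), ITGAV most like WDR45 (0.895) and ITGA7 most like SCAMP2 (0.843). Each is the highest r of all genes searched, and ITGA4, ITGA7 and ITGA10 have low counts.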

How the data were processed

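RNA-seq libraries of MDA-MB-231 cells were prepared from polyadenylated RNA, per the labels' protocols. The submitters' processing notes name GRCh38, Subread 1.5.2, featureCounts and STAR 2.5.2b. No source used here gives the annotation release or the use of strand in counting. Raw counts were deposited by the authors, as whole reads per gene, for 57500 genes, of which 26937 had no count. Annotated antisense or overlapping genes share at most 3.08% of a member's exonic bases, and such reads cannot be told apart.

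Counts were analysed with edgeR 4.0.16 (R 4.3.3): filterByExpr kept 15566 genes, TMM gave the scaling factors, and 1 robust quasi-likelihood model with the 4 group means took in all 16 libraries (12 residual degrees of freedom, biological coefficient of variation 14.4%). Benjamini-Hochberg adjusted p under 0.05 was the limit for a call. The 5 contrasts share groups. CPM are counts over the TMM-scaled library size, and lengths and 3' UTRs are from GENCODE release 29. The fit was tested on simulated data. Alternatives were other scalings, no filter, DESeq2 1.42.0, limma-voom 3.58.1, a replicate block, separate fits and libraries left out.

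The members and lists were chosen with earlier results of these data known. All 10 members were named, with up to 4 genes of smallest p per list and the gene most like each member. The main fit did not pair libraries by replicate number, and whether the numbers mark pairs was not tested. Some genes that this rule names are not reported here.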

Additional observations from a re-analysis of the deposited data

Results flagged for a closer look

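In 39 sets of 4 libraries (a member in a group, with differing values), 5 had a library far from the other 3; about 1 in 20 such sets would do so by chance. ITGA10 had 5.73 CPM in replicate 1 of induced shScramble libraries, with the next library at 2.27 CPM. ITGA7 had 0.778 CPM, from 29 counts, in replicate 1 of uninduced shScramble libraries, with the next at 0.0737 CPM. ITGA3 was lowest in replicate 4 of uninduced shScramble libraries, at 959 CPM with the next at 1039 CPM. ITGA6 was highest in replicate 1 of induced shAKAP2 libraries, at 689 CPM with the next at 656 CPM. ITGA11 had 0.206 CPM, from 5 counts, in replicate 1 of induced shAKAP2 libraries and 0 in the other 3.

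The response to doxycycline differed between the shAKAP2 and the shScramble line by the interaction term for ITGA5 (-0.76 on the log2 scale) and ITGA2 (-0.63).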

How the results depend on the processing

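Of 783 recomputed values of 45 member results, 696 kept direction and side of the threshold. ITGA1, ITGA2 and ITGA5 stayed lower with the AKAP2 hairpin induced in all 16 alternatives; the count rose to 5, with ITGA6 and ITGA10, when only the contrast's groups were fitted and, in a fit added after seeing the data, without both shScramble replicate 1 libraries. In the shScramble line, members higher were 0 in the main analysis, 1 with no filter, 1 with a replicate block, 2 with DESeq2, 4 without both replicate 1 libraries and 0 to 4 with 1 library left out (4 without induced replicate 1, 1 without uninduced replicate 1). Members with a more negative effect in the shAKAP2 line numbered 4 with the replicate block (ITGA1 and ITGA10 added), 7 without both replicate 1 libraries and 2 to 5 with 1 left out (5 without induced and 4 without uninduced shScramble replicate 1). Between the induced lines the higher member was lost (0) with no filter, in the separate fit and without both replicate 1 libraries, and 0 to 1 were called with 1 left out (0 without any 1 of the induced shAKAP2 libraries or of induced shScramble replicates 1 and 2). Between the uninduced lines 5 were higher without both replicate 1 libraries and 1 to 4 with 1 left out (1 without uninduced shAKAP2 replicate 1 or 2 or uninduced shScramble replicate 4). The cause of these changes was not tested. Libraries of the same replicate number had r of deviations from 0.023 to 0.40 between the shScramble groups. For every other pair of groups r lay between -0.10 and 0.058. Of 8 libraries checked, 4 correlated best with their own number. Whether the numbers mark pairs was not tested.

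Signs turned only for values that passed no test. Without both replicate 1 libraries ITGA2 was 0.10 in the shScramble line, ITGA7 was 0.095 between the induced lines and ITGA10 was 0.35 between the uninduced lines. ITGA4 between the induced lines was 0.025 with the replicate block and 0.32 with limma-voom. With 1 library left out, the ranges were -0.015 to 0.61 for ITGA7 in the shAKAP2 line; -0.17 to 0.39 for ITGA1, -0.13 to 0.10 for ITGA2 and -0.0090 to 0.15 for ITGAV in the shScramble line; -0.067 to 0.090 for the difference of ITGAV; -0.52 to 0.11 for ITGA4, -0.53 to 0.13 for ITGA7 and -0.014 to 0.12 for ITGAV between the induced lines; and -0.10 to 2.02 for ITGA7, -0.96 to 0.35 for ITGA10 and -0.013 to 0.10 for ITGAV between the uninduced lines.

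Over all genes, 3158 were higher in the shAKAP2 line in the separate fit, against 2032. In the shScramble line 87 were higher and 81 lower; these were 168 and 132 with DESeq2, 14 and 24 in the separate fit, 590 and 414 without both replicate 1 libraries, and 42 to 240 and 54 to 171 with 1 left out. The difference of effects had 2261 higher and 2565 lower without both replicate 1 libraries, against 1172 and 1630. Between the uninduced lines 744 to 1206 were higher and 930 to 1398 lower with 1 left out, against 1346 and 1449, and 2132 higher without both replicate 1 libraries.

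Low counts limit ITGA4, ITGA7, ITGA10 and ITGA11, and ITGA7 intervals span more than 3 on the log2 scale.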
